A study of Mus musculus with 5 samples.

Results

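The Nrg3 region described here is the stretch of mouse chromosome 14 from 39100001 to 40350000 (mm9), which holds the gene Nrg3 and was covered by 25 bins of 50 kb, out of 47652 bins analysed over the genome. The flanks are the 1000 kb on either side, with 20 bins each (38100001 to 39100000 toward the centromere and 40350001 to 41350000 toward the telomere). Every bin of the region and flanks had a value in all 5 Hi-C libraries. The region was chosen by its PC1 values, the compartment score explained below, which had differed between Late and Basal libraries, so its Late versus Basal difference is given as a description and supports nothing. The bounds place Nrg3 by the rule that defined the region. No mm9 gene annotation was used here, so exons and introns are not placed on bins.

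The libraries were made from sorted neuronal nuclei of the hippocampus of mice with genotype +/+ that carried ArcCreERT2 and R26R-STOP-floxed eYFP. In such mice Cre recombinase is made under the promoter of Arc, a gene that neurons switch on with activity, and once released by tamoxifen it turns on the yellow reporter. Per the labels' protocols, all mice received 4-hydroxytamoxifen 1 h before training, which was contextual fear conditioning with foot shocks. The groups were Basal (2 libraries), Early (1 library) and Late (2 libraries), and 100000 nuclei per group were pooled from 2 animals. The labels give all 5 libraries the same treatment, with foot shock and collection on day 0 and no recall, while the protocol also describes collection 1.5 to 2 h or 5 days after conditioning. The states are therefore called by their titles only. The labels do not say which reporter fraction of the sorted nuclei each group holds, nor the age or sex of the mice. The files hold no expression values, so neuronal markers could not be checked.

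Neuregulin-3, the product of Nrg3, is a membrane-bound growth factor with an EGF-like domain. It is made mainly in neurons and binds the receptor tyrosine kinase ErbB4, which in the hippocampus is found chiefly on inhibitory interneurons, and it is known for its part in the synapses that excitatory cells form on them. Hi-C records which pieces of DNA lie close together in the nucleus, and the first principal component of its contact map (PC1) splits each chromosome into compartment A, which is open and gene-rich, and compartment B, which is closed and gene-poor. In the usual convention PC1 is positive in A and negative in B.

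In the RefSeq order of genes the nearest protein-coding neighbours of Nrg3 toward the centromere are Ghitm, which encodes a protein of the inner mitochondrial membrane, 2610528A11Rik and Cdhr1, a cadherin of photoreceptors. Toward the telomere they are Sh2d4b, an SH2 domain protein, Tspan14, a tetraspanin, and Prxl2a, a peroxiredoxin-like protein. One predicted gene, Gm31606, overlaps Nrg3. RefSeq lists Nrg3 on the minus strand, so transcription starts at the telomere side of the gene and runs toward the centromere. The sequence just before its outermost RefSeq start is shown because it marks the end of the gene from which transcription runs. The profile of PC1 along the region is referred to that side. This sequence lies at chr14:39473236-39473338 on the minus strand of GRCm38.p6, a build whose coordinates cannot be set against the mm9 bins. It is written 5′ to 3′ with each CG pair in capitals.
Nrg3 upstream: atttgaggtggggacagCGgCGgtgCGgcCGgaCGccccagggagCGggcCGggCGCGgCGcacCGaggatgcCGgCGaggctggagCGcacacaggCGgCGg
These 103 bases hold 16 CG pairs, a motif that reads the same on both strands. Of 32851 RefSeq promoter entries, 1.88% held as many in the same positions and 76.1% held any, with a median of 2. The GC content was 78.6%, beside a median of 50.5%.

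In Basal neurons the Nrg3 region was an island of compartment A between flanks deep in B. Its mean PC1 was 0.311 in Basal replicate 1 and 0.220 in Basal replicate 2. In Early it was -0.0183, at the border between compartments. In Late replicates 1 and 2 it was -0.853 and -0.664. The Basal and Late libraries did not overlap, and Early lay between them. The group means were 0.265 ± 0.064 in Basal and -0.759 ± 0.13 in Late (SD, n = 2 in each group), and Late minus Basal was -1.02 PC1 units. Between single libraries that difference ran from -1.16 to -0.884.

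**Figure D1:**
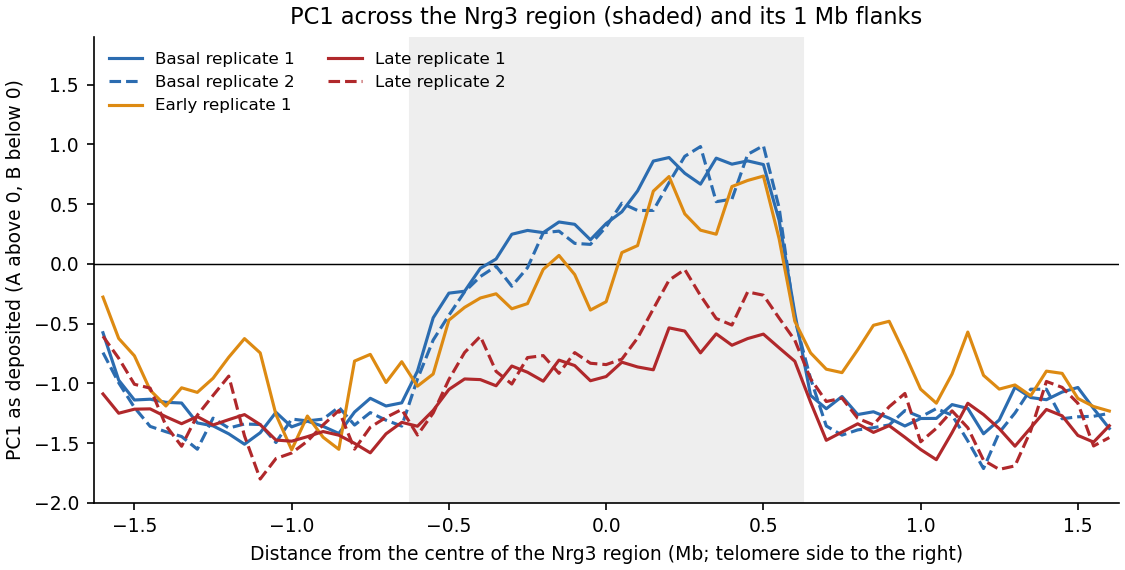
PC1 as deposited in each 50 kb bin (y axis, A above 0 and B below) against distance from the centre of the Nrg3 region in Mb (x axis), 1 line per library, with the region shaded. Both Basal lines rise above 0 within the region, Early stays above 0 only toward the telomere side apart from 1 bin, and neither Late line reaches 0.

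Over the flanks Basal and Late lay close together. On the centromere side the 2 Basal libraries averaged -1.23 and -1.30, Early -0.981, and the 2 Late libraries -1.35 and -1.28. On the telomere side the averages were -1.21 and -1.30 (Basal), -0.909 (Early), -1.38 and -1.31 (Late replicates 1 and 2). Late minus Basal was thus -0.0511 and -0.0939 in the flanks, beside -1.02 in the Nrg3 region. Early was the library with the least negative flanks on both sides.

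The mean of the Nrg3 region minus the mean of its flanks shows how far the island stood out within each library. Basal replicates 1 and 2 had a contrast of 1.53 and 1.52 PC1 units, Early of 0.927, and Late replicates 1 and 2 of 0.514 and 0.631. The region remained above its flanks in all 5 libraries. The order Basal, Early, Late was the same as for the region alone. Early stood closer to Late here (Late minus Early -0.354) than in the mean PC1 of the region (-0.740). Early minus Basal of the contrast was -0.597, from -0.283 in the region and 0.313 in the flanks. With 2 libraries against 2, an exact permutation test of a single value cannot reach 0.05, and these contrasts are given without a test.

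**Figure D2:**
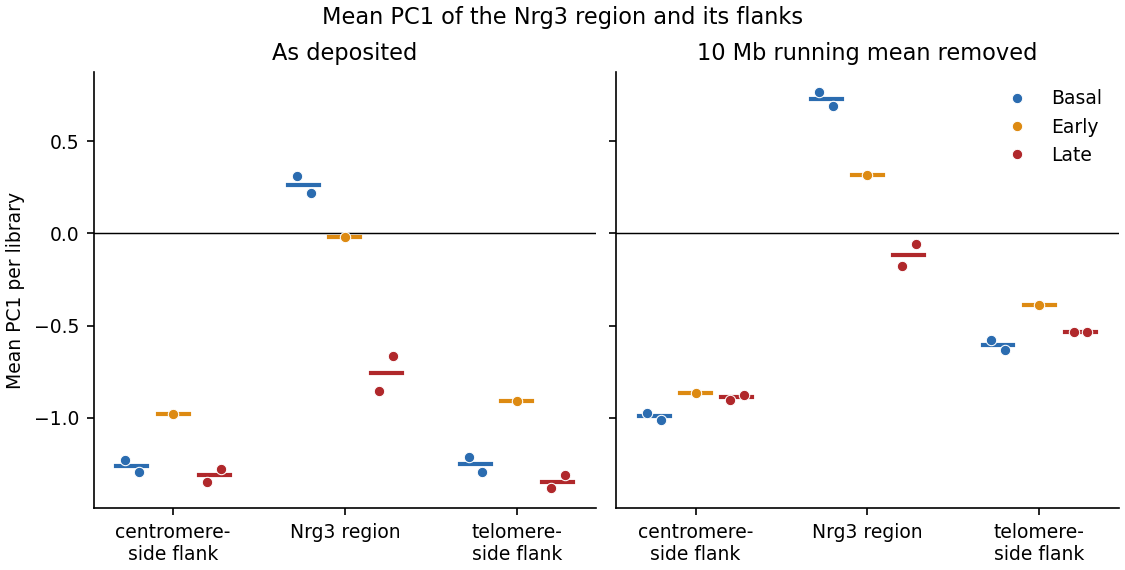
Mean PC1 (y axis) of the centromere-side flank, the Nrg3 region and the telomere-side flank (x axis), as deposited (left) and after removal of a 10 Mb running mean (right). Each point is 1 library and each bar a group mean; in the region the Basal points (0.311 and 0.220 as deposited) lie above Early and both Late points, while the Basal and Late group means of either flank lie within 0.1 of each other as deposited.

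The A island of Nrg3 was not even along the region. In every library the lowest of the 25 bins was the first on the centromere side (39100001 to 39150000), from -0.898 in Basal replicate 1 to -1.43 in Late replicate 2. The highest bin lay between 39.90 and 40.25 Mb in all 5 libraries, and it reached 0.889 and 0.989 in Basal replicates 1 and 2 and 0.734 in Early. In Late replicates 1 and 2 the highest bin was still negative, at -0.536 and -0.0474. PC1 was thus lowest at the centromere side of the region, the side of the 3′ end of Nrg3. It was highest nearer the side where transcription starts, and it dropped again in the last 2 bins of the region.

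Bins in compartment A numbered 19 of 25 in Basal replicate 1 and 16 in Basal replicate 2. There were 12 in Early and 0 in each Late library. In Basal they formed a single run of 950 and 800 kb, from 39.35 and 39.50 Mb respectively to 40.30 Mb. In Early the longest run spanned 550 kb, from 39.75 Mb to the same end at 40.30 Mb. The island thus ended at the same bin toward the telomere in Basal and Early, and began farther from the centromere in Early.

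The telomere-side border was steep. The 5 bins from 40.00 to 40.25 Mb averaged 0.815 and 0.789 in Basal replicates 1 and 2, while Early averaged 0.522 and Late replicates 1 and 2 averaged -0.645 and -0.347. The first 5 bins of the flank averaged -1.18 and -1.30 in Basal replicates 1 and 2, while Early averaged -0.754 and Late replicates 1 and 2 averaged -1.36 and -1.18. The step from the inner to the outer bins was therefore widest in Basal, at -2.0 and -2.09 in replicates 1 and 2. It was -1.28 in Early and narrowest in Late, at -0.713 and -0.829 in replicates 1 and 2. Basal and Late differed on the inner side of the step, and their ranges overlapped on the outer side.

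Along the 25 bins the profiles of Nrg3 correlated between libraries, while their level and their height differed. Pearson's r over bins was 0.934 between the Basal replicates, 0.884 between the Late replicates and 0.809 to 0.856 between a Basal and a Late library. For Early, r was 0.929 and 0.914 with Basal replicates 1 and 2, and 0.869 and 0.879 with Late replicates 1 and 2. The profile was flatter in Late. The SD over the 25 bins was 0.202 and 0.338 in Late replicates 1 and 2, beside 0.484 and 0.517 in Basal replicates 1 and 2 and 0.495 in Early. The rise from the first 5 bins to the 5 bins at 40.00 to 40.25 Mb was 0.469 and 0.653 in Late replicates 1 and 2, beside 1.19 and 1.26 in Basal replicates 1 and 2 and 1.14 in Early. The correlations are descriptions over 25 neighbouring bins that share reads, since PC1 was computed in windows of 100 kb.

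In segments of 5 bins, Late minus Basal was smallest in size at the centromere end of the region. It was -0.633 in the segment from 39100001 to 39350000, where Basal already lay in B at -0.423 ± 0.072. It was -1.04 from 39.35 to 39.60 Mb, where Basal averaged 0.147 ± 0.13 and Late -0.895 ± 0.028. From 39.60 to 39.85 Mb the difference was -1.18, with 0.351 ± 0.045 in Basal and -0.830 ± 0.088 in Late (SD, n = 2 each, as for all segments).

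The segment from 39.85 to 40.10 Mb had the highest Basal level, 0.758 ± 0.075, and the widest gap between the Late replicates, at -0.663 and -0.257. Its Late minus Basal difference was -1.22. In the last segment, from 40100001 to 40350000, Basal averaged 0.492 ± 0.0041 and Late -0.552 ± 0.19, which gives a difference of -1.04. In all 5 segments both Late libraries lay below both Basal libraries.

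In Early the difference from Basal had another order along the region. Early minus Basal was -0.190, -0.334, -0.461, -0.301 and -0.131 in the 5 segments from the centromere side to the telomere side. The Early value was 30.0%, 32.1%, 39.0%, 24.7% and 12.5% of the way from the Basal to the Late mean as deposited, and 72.3%, 54.5%, 58.8%, 40.6% and 28.2% after removal of a 10 Mb running mean (described further on). On both scales Early was nearest to Basal at the telomere-side end of the region, the side on which transcription starts. There its deposited PC1 was 0.362 beside 0.495 and 0.490 in the Basal replicates. The segment farthest toward Late was the middle one as deposited, with -0.109 in Early beside 0.383 and 0.319 in the Basal replicates, and the centromere-side one with the trend removed.

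The per-bin comparison used limma over all 47652 bins, with Benjamini-Hochberg adjusted p-values at 0.05. For Late versus Basal it called 24 of the 25 bins of the Nrg3 region lower in Late and none higher, beside 7.63% of all bins called lower. The choice of the region used this comparison, so nothing is read from that count. Differences over the 25 bins ran from -1.34 to -0.287, with a median of -1.12 (SE 0.115 to 0.195), beside a median of -0.0114 over all bins. The 15 bins below -1 formed a single stretch from 39.50 to 40.25 Mb. In the flanks 1 of 40 bins was called, lower in Late. With each Basal or Late library left out in turn, Late minus Basal of the region minus its flanks ran from -1.01 to -0.892.

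The bin just inside the region toward the centromere had a Late minus Basal difference of -0.465, and its neighbour just outside had -0.0122. At the telomere side the last bin of the region (40300001 to 40350000), the one not called, had -0.287 and the next bin outside -0.0291. A further fit used every deposited sequence, including chromosome 7, whose sign was not the same in all libraries (lowest r between libraries -0.976). There limma called 0 bins of the region (24 at an unadjusted p under 0.05) and 0 over the genome (13365 unadjusted). The differences in the region were the same in that fit, in which limma's prior degrees of freedom were 2.58 beside 6.6.

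For Early versus Basal, which asks whether the island had already changed in the Early state, limma called 2 of the 25 bins lower in Early, beside 9.98% of all bins. These were the neighbouring bins from 39.65 to 39.75 Mb, with differences of -0.569 and -0.641 and adjusted p of 0.0283 and 0.0165. The share is 8.00% and near the background. At an unadjusted p under 0.05 (limma) there were 8 bins, all lower in Early. Of all 47652 bins, 17209 passed that threshold, 8577 of them lower in Early. The difference was below 0 in all 25 bins, from -0.641 to -0.0405, with a median of -0.261 beside 0.000784 over all bins. In the flanks 7 of 40 bins were called, all higher in Early, beside 9.97% called higher over all bins. The calls in the region and flanks changed with the library left out, as did the share of all bins called (ranges further on). Without Basal replicate 1, Early minus Basal was -0.238 for the mean of the region and -0.589 for the region minus its flanks. Without Basal replicate 2 these differences were -0.329 and -0.605. This comparison shares the Basal libraries with the one that chose the region.

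For Late versus Early, which asks what differed between the Early and the Late state, limma called 15 of the 25 bins, all lower in Late, beside 6.44% of all bins called lower. Of the 40 flank bins 9 were called, also all lower in Late. Differences in the region ran from -1.24 to -0.247, with a median of -0.723 (SE 0.141 to 0.238), and over the flanks the median was -0.358. The most negative difference was at 40.10 to 40.15 Mb, where Early had 0.647 and Late replicates 1 and 2 had -0.681 and -0.513 (difference -1.24, limma adjusted p of 0.00567). Local noise is the spread (as an SD) of a library's bins around the mean of the bins 100 kb to either side, estimated from differences between libraries. With libraries weighted by this noise, which is highest in Early at 0.205 PC1 units, 6 bins of the region and 0 of the flanks were called, beside 2.26% of all bins in either direction. Without Late replicate 2 the flanks had 19 called bins, all lower in Late, when 26.5% of all bins were called in either direction, beside 12.7% with all libraries. This comparison shares the Late libraries with the one that chose the region, and Early is 1 library, assumed to vary like the others.

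**Figure D3:**
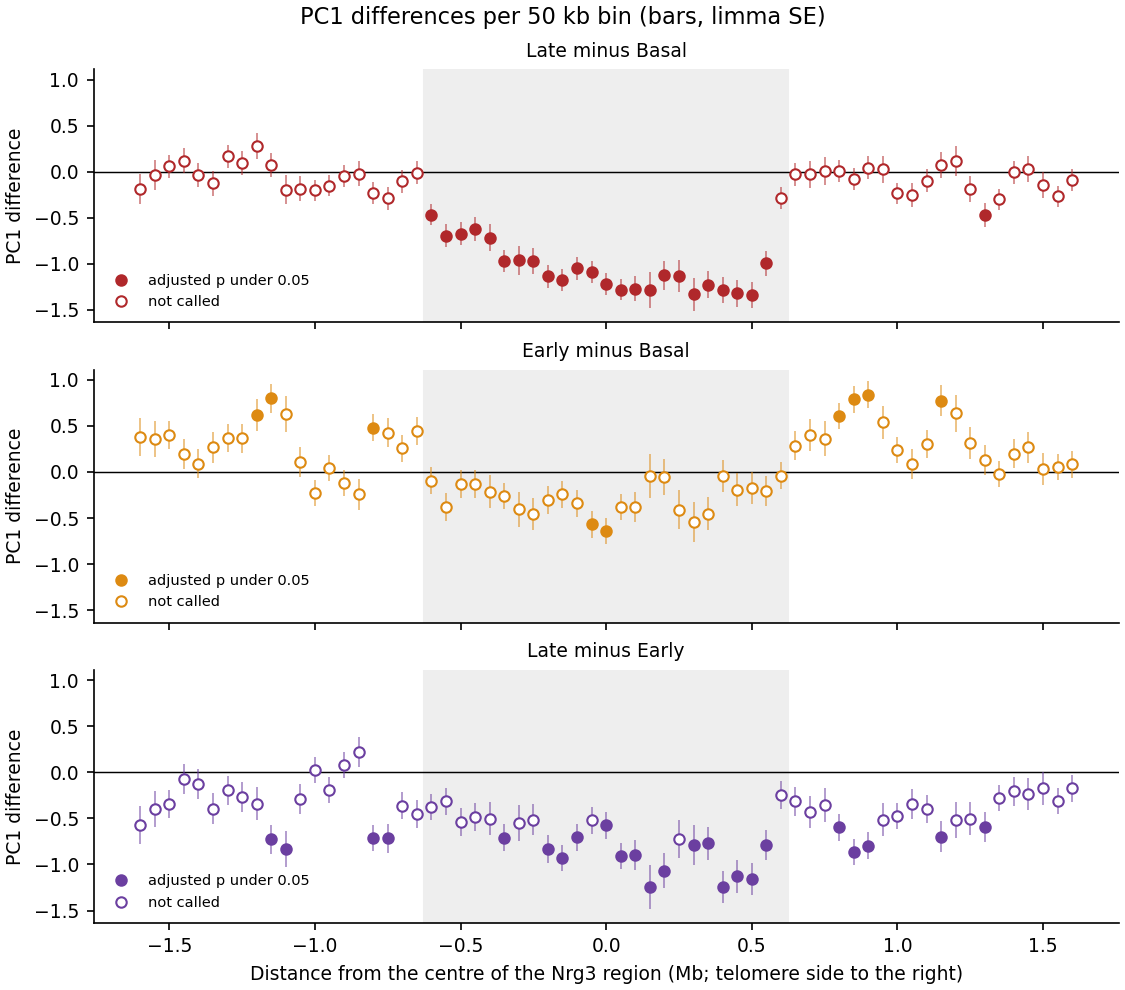
Difference in PC1 per 50 kb bin (y axis) against distance from the centre of the Nrg3 region in Mb (x axis) for the 3 comparisons, with limma standard errors as bars, the region shaded and bins called at an adjusted p under 0.05 filled. For Late minus Basal 24 of 25 bins in the region and 1 of 40 in the flanks are filled; for Early minus Basal the 2 filled bins of the region lie below 0 and the 7 of the flanks above 0.

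Counting libraries bin by bin, both Late libraries lay below both Basal libraries in 25 of 25 bins of the Nrg3 region and in 9 of 40 flank bins, beside 31.9% of all bins. In 16 bins of the region the sign was positive in both Basal and negative in both Late libraries, beside 2.62% of all bins, and in no flank bin. Of those 16 bins, 12 were in A in Early too, a pattern found in 1.21% of all bins. In the other 4, Early was in B while both Basal libraries were in A, as in 4.09% of all bins. In 22 of 25 bins Early lay below both Basal libraries and above both Late libraries, beside 6.5% of all bins and 0 of 40 flank bins. In the flanks Early lay above both Basal libraries in 33 of 40 bins, beside 44.1% of all bins. The Basal and Late side of these counts follows from the choice of the region. A wide gap between Basal and Late also leaves more room for Early to fall between them. The 22 bins are therefore not like for like with the shares beside them, and nothing is read from that count. The replicates differed by a median of 0.142 PC1 units per bin of the region in Basal and 0.169 in Late, and by at most 0.435 and 0.515.

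Removing the running mean of 10 Mb from each library, which takes out changes that run over many megabases, left the order of the libraries in the region the same and altered levels and signs. For the Nrg3 region, Basal replicates 1 and 2 then averaged 0.768 and 0.694, the Early library 0.317, and Late replicates 1 and 2 averaged -0.178 and -0.0578. Late minus Basal was -0.849, Early minus Basal -0.414 and Late minus Early -0.435. In the flanks Late minus Basal turned positive, at 0.103 toward the centromere and 0.0720 toward the telomere. This running mean contains the region itself. With the mean computed without the region and flanks, the flank differences stayed negative, at -0.0665 and -0.0951. With the running mean that contains the region removed, the region no longer lacked positive bins in Late. Its highest bins reached 0.191 and 0.608 in Late replicates 1 and 2, beside -0.0476 and 0.365 with the mean computed without it. Of the 22 bins of the region above 0 in both Basal libraries after removal of the trend, 11 were below 0 in both Late libraries. This count follows from the choice of the region and has no share over all bins beside it, so nothing is read from it. The contrast with the flanks moved by less than 0.03 in each library, to 1.54 and 1.52 (Basal), 0.945 (Early), 0.541 and 0.649 (Late). The running mean itself differed little between region and flanks, by -0.0272 to -0.00295 per library, so removing it could hardly move this contrast. With the trend removed, limma called 23 of 25 bins lower in Late than in Basal (5.61% of all bins), 4 lower in Early than in Basal (5.71%) and 7 lower in Late than in Early (3.35%).

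The trend removed was lowest in Late and highest in Early at this place, as computed with the region in it. Over the region the 10 Mb running mean was -0.457 and -0.475 (Basal), -0.335 (Early), -0.675 and -0.606 (Late). Late minus Basal was -0.175 and Early minus Basal 0.131 for this trend. The running mean contains the region and its flanks. Computed without them, it was -0.350 and -0.328 (Basal), -0.180 (Early), -0.372 and -0.332 (Late). The Basal and Late libraries then overlapped in this trend, with Late minus Basal at -0.0135, while Early minus Basal was 0.159. With that trend removed, the difference of the Nrg3 region between Late and Basal was -1.01. Of the 225 bins possible within 5 Mb of the region, 195 had a value, with the longest gap from 42.20 to 43.70 Mb.

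**Figure D4:**
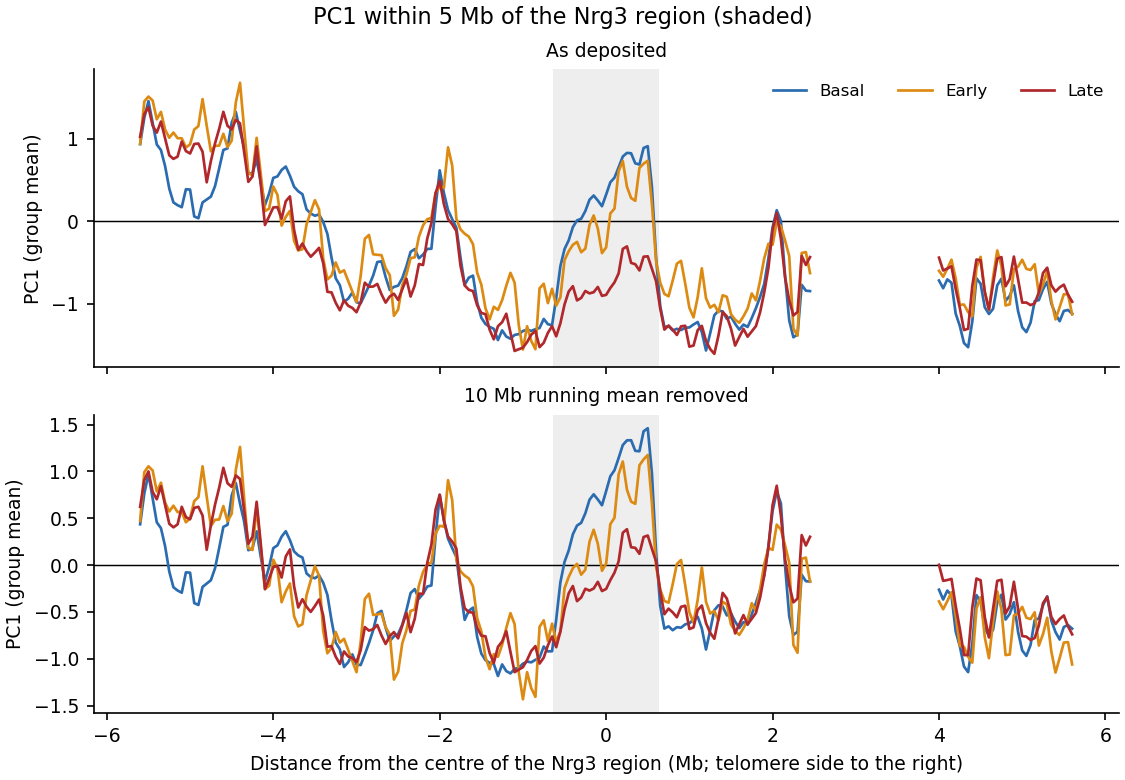
Group mean of PC1 (y axis) within 5 Mb of the Nrg3 region (shaded) against distance from its centre in Mb (x axis), as deposited (top) and with the 10 Mb running mean removed (bottom), with a break in the lines where bins had no value. The Basal line forms a broad peak over the region that is lower in Early and lowest in Late, while the narrow peaks on either side, about 2 Mb from the centre, reach similar heights in Basal and Late.

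The nearest bins outside the Nrg3 region that were in A in both Basal libraries served as a local comparison. Toward the centromere, a run of 3 bins from 37.70 to 37.85 Mb averaged 0.332 and 0.398 in Basal replicates 1 and 2, with 0.573 for Early and 0.253 and 0.231 for Late replicates 1 and 2. Toward the telomere, 1 bin from 41.75 to 41.80 Mb had 0.199 and 0.0680 in Basal replicates 1 and 2, with -0.0105 for Early and 0.00869 and 0.197 for Late replicates 1 and 2. Late minus Basal was -0.123 and -0.0307 there, and limma called none of these 4 bins for Late versus Basal. Between Early and Basal, 1 of the 3 centromere-side bins was called (limma, lowest adjusted p 0.0109), and the Early mean of those 3 bins lay 0.208 above the Basal mean. Elsewhere on chromosome 14, the 499 bins with a Basal mean between 0 and 1 had a median Late minus Basal of 0.0636 and a median Early minus Basal of 0.0186. The 19 such bins of the Nrg3 region had medians of -1.17 and -0.341. As the region was chosen by its Late minus Basal difference, a larger one than in other bins follows from the choice and supports nothing. Early minus Basal shares the Basal libraries with that choice. The 397 bins of the chromosome with a Basal mean below -1 had a median Early minus Basal of -0.148, while the 38 such bins of the flanks had 0.293.

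The pattern of library means was compared with 1894 other windows of 25 bins, tiled along the analysed chromosomes, by the Euclidean distance between the 5 library means. The nearest was chromosome 18 from 40450001 to 41700000, at a distance of 0.228, where Basal replicates 1 and 2 averaged 0.228 and 0.152, Early -0.170, and Late replicates 1 and 2 averaged -0.723 and -0.645. The next 4 lay farther away, at distances of 0.488 to 0.568, with 3 on chromosome 2 (starting at 61.70, 140.80 and 65.45 Mb) and 1 on chromosome 10 (starting at 97.00 Mb). Their Late minus Basal differences were smaller, from -0.549 to -0.475, and their Basal means lay near 0, from -0.0519 to 0.0502. Early minus Basal was -0.129 in the chromosome 10 window and 0.0185 to 0.0727 in the 3 windows of chromosome 2. The likeness is a description over 5 libraries.

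Beside these values, the libraries differed in noise and in how closely they correlated. Across the 2300 bins of chromosome 14, PC1 correlated with r of 0.984 between the Basal and 0.960 between the Late replicates, and of 0.909 to 0.929 for a Basal with a Late library. Early had the lowest values, 0.890 to 0.900 with the other 4. As Early has no replicate, these are all between states and cannot be told apart from a difference of state. Local noise was 0.205 PC1 units in Early, beside 0.115 and 0.119 in Basal replicates 1 and 2 and 0.101 and 0.188 in Late replicates 1 and 2. The median PC1 of chromosome 14 was -0.0726 in Early, beside -0.258 and -0.240 in Basal replicates 1 and 2 and -0.195 and -0.134 in Late replicates 1 and 2. The part of noise and of this shift in the Early values of the region and flanks was not tested. With chromosome medians aligned, Early minus Basal in the Nrg3 region was -0.444, and 9 bins were called lower in Early, when 23.3% of all bins were called in either direction (19.9% as deposited).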

How the data were processed

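PC1 was measured by Hi-C in 5 libraries of sorted hippocampal neuronal nuclei, grouped by their titles. Each deposited PC1 value is a score with a sign, given for 1 bin of 50 kb and made with HOMER on mm9, per the submitters' processing notes, with an SD of 1.00 on chromosome 14. For versions, aligner, read filters and the sign rule, the sources used here give nothing. Sequencing depth is unknown because PC1 is the deposited measurement, without counts. Coordinates are 1-based.

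Of 50542 bins with a value in all 5 libraries, 47652 lay on the 18 autosomes and X where r was at least 0.5 between any 2 libraries, which left out chromosome 7. limma 3.58.1 (R 4.3.3) was fitted to all 5 libraries, with 2 residual degrees of freedom and 6.60 from the shared prior, and p-values adjusted over all bins (2-sided). The labels do not say whether replicates had separate animals, so p-values measure the spread between libraries. Python 3.11.15, numpy 2.4.6 and pandas 2.3.3 were used for the rest. The script was tested on simulated data. The region, gene lists and settings were chosen with earlier results of these data known. The genes named are Nrg3, its 3 nearest neighbours on either side, and the 5 most alike windows. Other neuregulins and their receptors were not analysed here, as no mm9 annotation was used. The alternatives were other scalings, trend windows, bin sets, weights, flank widths, a replicate block and leaving out each library.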

Additional observations from a re-analysis of the deposited data

How the results depend on the processing

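The sign of the 6 differences in the Nrg3 region was the same under every alternative run. With a trend removed, the differences in mean PC1 moved under some or all windows. Those of the region minus its flanks changed by less than the SD between replicates (0.0593). A wide running mean differs little between region and flanks, so its removal could hardly move them. Aligning chromosome medians cannot alter them. For the mean PC1 of the region, Late minus Basal was -0.849 with a 10 Mb and -0.713 with a 5 Mb trend removed. Early minus Basal was -0.414 (10 Mb), -0.409 (5 Mb), -0.423 (20 Mb), -0.443 (10 Mb trend computed without the region, added after seeing the data) and -0.444 (chromosome medians aligned). Late minus Early was -0.435, -0.304, -0.592 and -0.567 under those 4 trends. For the region minus its flanks, flanks of 2 Mb gave -0.536 (Early minus Basal) and -0.433 (Late minus Early), and the region without its outermost 2 bins on either side gave -1.03 (Late minus Basal). Leaving out each library in turn gave -1.12 to -0.929, -0.329 to -0.238 and -0.835 to -0.646 for the mean (Late minus Basal, Early minus Basal, Late minus Early), and -1.01 to -0.892, -0.605 to -0.589 and -0.413 to -0.295 for the region minus flanks.

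Called bins of the region ranged from 19 to 24 for Late versus Basal with a library left out, 0 to 9 for Early versus Basal and 14 to 21 for Late versus Early, while the share of all bins called in either direction ranged over 5.54% to 30.2%, 8.91% to 37.5% and 7.97% to 26.5%. In the flanks these ranges were 0 to 4, 2 to 17 and 7 to 19. With all sequences as deposited all 6 counts were 0, beside 0%, 4.12% and 0% of all bins. At an unadjusted p under 0.05 (limma), that fit had 24, 4 and 22 bins of the region and 3, 13 and 13 of the flanks. Over all 50542 bins the unadjusted counts were 13365, 14811 and 12635. For Early versus Basal the region had 4 called bins with a 10 Mb (11.7% of all bins) and 5 with a 20 Mb trend removed (15.5%), 5 with the trend computed without the region (11.7%), 9 with medians aligned (23.3%) and 0 with noise weights (2 unadjusted; 7.36%). For Late versus Early it had 7 with a 10 Mb (7.0%) and 2 with a 5 Mb trend removed (3.78%) and 6 with noise weights (2.26%). In the flanks, Late versus Basal called 0 with either 10 Mb trend (11.9% and 12.0% of all bins in either direction). With the 5 Mb trend it called 3 (6.99%), all higher in Late, where the 1 bin called as deposited was lower. Early versus Basal called 4 in the flanks with either 10 Mb trend (11.7% each), the 20 Mb trend (15.5%) or aligned medians (23.3%). It called 3 there with the 5 Mb trend (7.08%) or noise weights (7.36%). Late versus Early called 1 in the flanks with the 10 Mb trend (7.0%) and 2 with the trend computed without the region (7.01%). It called 5 there with the 20 Mb trend (9.75%), and 0 with the 5 Mb trend (3.78%) or noise weights (2.26%). The causes of these changes were not tested.

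The replicate numbers of Basal and Late gave no sign of pairing (r of 0.0101 between the deviations of same-numbered libraries over 47652 bins). With the replicate block, 24, 1 and 16 bins of the region were called for Late versus Basal, Early versus Basal and Late versus Early, beside 18.4%, 20.1% and 12.2% of all bins. Depth is unknown, and the lone Early library limits both comparisons that use it.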
